A study of Anthoceros agrestis with 2 samples.

Results

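The sites described here are cytosines followed by AA or TA, in the trinucleotides CAA and CTA, on the 6 chromosomes (AnagrOXF.S1 to AnagrOXF.S6) of the hornwort Anthoceros agrestis. They were taken from the merged report, made from the reads of replicates 1 and 2 together, wherever at least 10 reads covered the cytosine. There were 3845193 such sites among 29884992 covered cytosines of all contexts (12.9%), namely 2573169 CAA sites and 1272024 CTA sites. At this depth 49.8% of all CAA sites and 48.3% of all CTA sites were covered, and both contexts had a median of 9 reads per listed site. DNA methylation had been profiled by EM-seq, in which enzymes shield methylated cytosines and deaminate the rest, which sequencing then shows as thymine. Each replicate report held 323429467 or 325691541 cytosine calls and the merged report 648374160. The material was 4-wk-old thalli, the vegetative haploid body, of wild-type plants of the Oxford strain, all grown under 1 condition, in 2 biological replicates with no treated or mutant group. With 2 replicates of a single group no test across plants was possible, since the smallest two-sided exact p would be 0.5. Values are therefore given for the merged report and for each replicate, and differences are read against the spread between the replicates.

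CAA and CTA belong to the CHH contexts, where H is any base other than G. Such sites have no mirrored cytosine on the other strand, so their methylation cannot be copied from the old strand to the new one after replication, as MET1 does at CG sites. In flowering plants CHH sites are methylated either by DRM enzymes guided by small RNAs, with little preference for the trinucleotide, or by the chromomethylase CMT2, which is drawn to chromatin carrying H3K9 methylation and prefers CAA and CTA. A related chromomethylase, CMT3, maintains CHG methylation in the same chromatin.

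The level of a site is its share of methylated reads, and the level of a group of sites is the mean over its sites. To place the sites, the chromosomes were cut into bins of 1 kb, of which 111934 had enough data to be scored, that is 5 or more covered sites of CG and also of CHG. In 42154 methylated bins (37.7%) the CG level was at least 50% and the CHG level at least 30%. In 44565 unmethylated bins (39.8%) both were below 5%, and these bins give the background. A further 7256 bins had CG but little CHG methylation (CG of at least 50%, CHG below 10%). Methylated bins held 886458 of the covered CAA sites (34.5%) and 509465 of the covered CTA sites (40.1%). Of the covered sites, 0.523% of CAA and 0.764% of CTA lay in bins that could not be scored.

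A few sites show the range of levels, and their sequences are given where the report allows the bases to be read. No reference sequence was used here, so the bases come from the trinucleotides listed at each cytosine, on the strand of the site from 5′ to 3′ and in coordinates of the Oxford assembly, and a stretch ends where an A or T cannot be told. The capitals mark the CAA or CTA trinucleotide, whose C was measured. Gene and transposable element annotation was not used here, so it is not stated what these positions lie in. The first sequences belong to sites that reached 80% in each of the replicates, chosen for that level among sites with 10 to 27 reads.
CAA, AnagrOXF.S4:7254615-7254643, plus strand: ctagggaaggcgcCAAaggcagcgccgct
CAA, AnagrOXF.S4:13275065-13275095, plus strand: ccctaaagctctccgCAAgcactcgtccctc
CTA, AnagrOXF.S4:195902-195923, minus strand: cactgcCTAgggagagccccac
CTA, AnagrOXF.S2:6085924-6085954, plus strand: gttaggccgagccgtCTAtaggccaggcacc
The first site had 15 methylated of 17 reads (88.2%, exact Clopper-Pearson 95% interval 63.6% to 98.5%), with 10 of 12 in replicate 1 and 5 of 5 in replicate 2. The second had 12 of 12 reads (interval 73.5% to 100%), 6 of 6 in each replicate. For the CTA site at 195917 all 11 reads were methylated (interval 71.5% to 100%), and for that at 6085939, 9 of 10 (interval 55.5% to 99.7%). Such sites were rare. In all, 23 CAA and 4 CTA sites met the limits, of which 19 and 4 lay in methylated bins and none in unmethylated bins. Within the same read limits these were 0.00143% of the CAA and 0.000506% of the CTA sites, against 0.000388% of all CHH sites, so the CTA share, from 4 sites, was near that of CHH. Their neighbours could be far lower, since the other 26 CAA sites of the bin around the first site had a mean level of 5.30%, and the other 13 CTA sites of the bin around 6085939 had 13.2%. These intervals cover counting error only.

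In methylated bins, CAA and CTA sites carried low but widespread methylation. The CAA level was 5.32% in replicate 1 and 5.23% in replicate 2, and the CTA level 3.27% and 3.20%. In unmethylated bins the CAA level was 0.112% and 0.125% and the CTA level 0.117% and 0.127%, so each context was far above its background in both replicates. The ratio of methylated to unmethylated bins was 44.6 ± 4.00 for CAA and 26.6 ± 1.88 for CTA (SD, n = 2). CAA exceeded CTA 1.63-fold in methylated bins (1.63 ± 0.00642, SD, n = 2), whereas in unmethylated bins the contexts differed by less than the spread between the replicates. Both levels exceeded those of the CHH trinucleotides with the same first 2 bases. This was not so for a final A after CC, since CCA had 0.998%, below CCC (1.05%) and CCT (1.31%). The CAA level was 2.52 ± 0.127 times that of CAT and 2.83 ± 0.157 times that of CAC, while the CTA level was 6.71 ± 0.413 times that of CTT and 7.02 ± 0.518 times that of CTC (SD, n = 2). Levels were also taken over blocks of 1 Mb with enough covered sites, some of them shorter at chromosome ends. The CAA level of methylated bins lay between 4.05% and 6.55% (127 blocks, median 5.24%) and the CTA level between 2.51% and 4.04% (126 blocks, median 3.19%). In unmethylated bins no block exceeded 0.379% for CAA or 0.268% for CTA, so the ranges did not overlap.

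Bins with CG methylation alone showed almost none of this. There the CAA level was 0.146% in replicate 1 and 0.164% in replicate 2, and the CTA level 0.136% and 0.151%, although the CG level of these bins was 70.01% and 67.96%. The excess over unmethylated bins was 0.0369 ± 0.00368 percentage points for CAA and 0.0213 ± 0.00409 for CTA (SD, n = 2). Both excesses exceeded their SD. The 7 other CHH contexts together were also higher, at 0.117% in CG-only against 0.0964% in unmethylated bins (means of the replicates). An excess was therefore not particular to CAA and CTA. The CAA level of methylated bins was 34.1 ± 3.23 times that of CG-only bins, and the CTA level 22.6 ± 2.06 times (SD, n = 2).

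Methylation at single sites was partial. In methylated bins, 40.4% of the CAA sites and 28.9% of the CTA sites had at least 1 methylated read, against 17.2% of all CHH sites of these bins. A level of at least 20% was reached by 64583 CAA sites (7.29%) and 16611 CTA sites (3.26%), against 2.04% of all CHH sites of these bins. A level of at least 50% was reached by 2731 CAA sites (0.308%) and 411 CTA sites (0.0807%), against 0.072% of all CHH sites. CAA sites made up 14.4% of the covered CHH sites of methylated bins and 61.5% of those at 50% or more, whereas for CTA the shares were 8.26% and 9.25%. In unmethylated bins only 3 CAA sites and 2 CTA sites reached 50%, as did 0.000162% of all CHH sites, while 174 CAA and 74 CTA sites reached 20%, as did 0.0083% of all CHH sites. Over the 6 chromosomes, 68174 CAA sites (2.65%) and 17739 CTA sites (1.39%) reached 20%, against 0.725% of all CHH sites, and 2889 and 443 reached 50% (0.112% and 0.0348%, against 0.0257%). Of those at 50% or more, 1665 CAA and 252 CTA sites were covered in both replicates, and 735 and 104 reached 50% in both. All these counts are from the merged report at low read numbers, and the part of counting error in them was not tested.

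Levels of single sites recurred between the replicates, which shared the bins but not the reads. CAA sites of methylated bins without a methylated read in one replicate had 3.602% ± 0.0108 in the other (SD, n = 2, each replicate used once to group the sites). Sites between 20% and 50% in one replicate had 12.2% ± 0.0131 in the other, and sites at 50% or more had 25.7% ± 0.00209. For CTA the corresponding levels were 2.43% ± 0.0101, 8.74% ± 0.107 and 21.8% ± 0.738. The order was therefore kept, but sites chosen as high in one replicate were lower in the other.

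CAA and CTA levels were set against the CHG level of the same bin to ask whether they go with it. Both rose over the whole range of CHG levels, and faster at its upper end. From the band of 10% to 20% CHG to that of 40% to 50%, the CAA level went from 1.302% (1.34% in replicate 1 and 1.32% in replicate 2) to 2.54% (2.57% and 2.52%). It was 5.31% at 60% to 70% (5.35% and 5.35%), 7.07% at 70% to 80% (7.13% and 7.03%) and 10.9% at 80% to 90% (10.8% and 10.7%). Within the 58 bins at 90% or more it was 15.6% over 547 sites (15.9% and 15.3%). The CTA level followed the same course, with 0.926% at 10% to 20%, 1.68% at 40% to 50%, 3.32% at 60% to 70% and 6.54% at 80% to 90% (6.46% and 6.52%). In no step from band to band did either level fall. As a share of the CHG level, CAA was lowest at 40% to 50% (5.61%) and was 13.2% at 80% to 90%. The CAA level of bins at 80% or more exceeded that of bins at 30% to 40% by 8.95 percentage points, with an SD between the replicates of 0.0514. With at least 20 reads per site the difference was 5.72 points over 4017 sites.

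**Figure D1:**
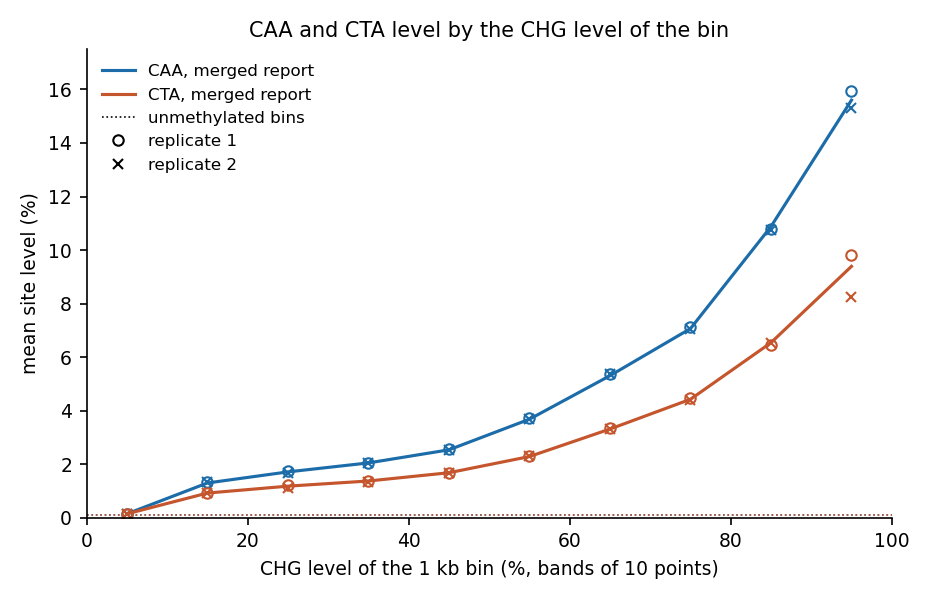
Mean CAA and CTA level (y axis, %) by the CHG level of the 1 kb bin (x axis, bands of 10 percentage points, scored bins). Lines are the merged report, circles and crosses the replicates, and dotted lines the levels of unmethylated bins. CAA lies above CTA in each band from 10% upwards and reaches 15.6% in the highest.

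At a given CHG level, CAA and CTA levels did not rise steadily with the CG level of the bin. In the band of 10% to 20% CHG, the CAA level was 1.42% where CG was at least 50% and 1.25% where it was lower. In the band of 20% to 30% CHG the order was the opposite, with CAA levels of 1.67% and 1.80% and CTA levels of 1.15% and 1.24%. In the band of 40% to 50% the CAA level was 2.52% against 3.22%, from 89458 and 3170 sites. Levels did go with the methylation of CCG, the CHG trinucleotide that is least methylated here. Among bins with a mean CAG and CTG level of 70% to 80%, the CAA level was 4.05% where the CCG level was 10% to 20% (3.97% and 4.14% in the replicates) and 7.54% where it was 40% to 60% (7.54% and 7.52%). Across the same bins the CTA level went from 2.56% to 4.49%. Levels also differed with base composition: at a CHG level of 60% to 70%, CAA sites of bins with a GC content of 55% or more had 7.07% (7.26% and 7.01%), against 4.70% (4.67% and 4.86%) at 40% to 45% and 5.33% (5.15% and 5.40%) below 40%, so the level did not rise steadily with GC content. The CHG level of a bin is a mean over its CAG, CTG and CCG sites. Their shares were not matched, so bins of equal CHG level can differ in each of these contexts.

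Bin by bin, CAA levels repeated between the replicates. Over methylated bins with at least 10 covered sites, the CAA level of replicate 1 was correlated with the CAA level of replicate 2 with r = 0.687 (34514 bins), with the CTA level of replicate 2 with r = 0.552 (24824 bins). Against other contexts in replicate 2, r was 0.599 for CAC and CAT (36085 bins), 0.435 for CHG (36387 bins) and 0.185 for CG (35540 bins). For the CTA level of replicate 1, r was 0.544 with CTA (21698 bins) and 0.387 with CHG (26195 bins) of replicate 2. The bins are not independent, and the replicates share genome, bin limits and mapping. Methylated bins were also selected by their CG and CHG levels, so r with CG and CHG covers only a part of their range. These r are thus not on a par with those of other contexts. Among 22651 methylated bins with at least 20 covered CAA sites, the CAA level had a median of 4.17%, with 5% of the bins below 1.05% and 5% above 12.5%. Only 4.52% of these bins were below 1%, and 8.58% reached 10%. For CTA, over 6304 bins, the median was 2.35%, 16.2% of the bins were below 1% and 1.904% reached 10%.

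The bins with the highest levels show how strong this methylation became. The CAA level was highest in AnagrOXF.S3:13285001-13286000, with 33.6% over 27 sites, 31.6% in replicate 1 and 39.4% in replicate 2. Next were AnagrOXF.S1:5286001-5287000 with 32.1% (34.4% and 30.2%) over 30 sites and AnagrOXF.S4:4008001-4009000 with 31.5% (26.8% and 29.5%) over 28 sites, the replicates being means over those sites that had at least 5 reads in each. Their CHG levels were 84.8%, 83.1% and 75.9%, and their CTA levels 22.1%, 17.4% and 15.3%. The CTA level was highest in AnagrOXF.S3:9134001-9135000, with 23.9% over 27 sites (24.5% and 23.1%). It was followed by AnagrOXF.S4:12253001-12254000 with 21.3% over 28 sites (20.3% and 22.9%) and AnagrOXF.S4:14294001-14295000 with 20.995% over 21 sites (24.9% and 16.1%). All 6 bins were chosen for their level, so these values describe them only. Methylation in these bins was spread over the sites, since methylated reads were found at 26 of 27, 28 of 30 and 28 of 28 CAA sites. The highest and lowest site covered in both replicates are given for the third CAA bin and for the first CTA bin. These bins are shown because most bases around their sites could be read. The sites were picked as highest and lowest, so a gap within each pair follows from the choice.
CAA, AnagrOXF.S4:4008055-4008066, plus strand, 7 of 11 reads methylated: CAAgctcacttg
CAA, AnagrOXF.S4:4008247-4008277, plus strand, 1 of 10 reads methylated: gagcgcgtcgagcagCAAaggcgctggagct
CTA, AnagrOXF.S3:9134257-9134277, minus strand, 10 of 12 reads methylated: ccaccCTAtagcaaaagggca
CTA, AnagrOXF.S3:9134699-9134723, minus strand, 0 of 15 reads methylated: actttgatgctatggCTAcaggcaa
The exact intervals of the CAA pair, 30.8% to 89.1% and 0.253% to 44.5%, overlap. The highest of these sites had 5 of 6 methylated reads in each replicate, and the count of 0 of 15 allows a level of up to 20% when set to 3 counts, or 21.8% as the upper end of the exact interval. The bases next to the trinucleotide differ within each pair, and they were examined over all sites.

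The base before and the base after the trinucleotide went with large differences in level. The base after the site was G, T, A or C with CAA levels of 8.76% (8.92% and 8.65% in the replicates), 6.22% (6.27% and 6.18%), 3.80% (3.82% and 3.84%) and 3.09% (3.10% and 3.14%) in methylated bins. Where the base was an A or T that could not be told, the CAA level was 3.54% over 245332 sites, below the levels with a read A (101551 sites) or a read T (78458 sites). For CTA the order was different, with 5.40% before T, 3.95% before G, 3.03% before A and 1.75% before C. With T in front, CAA had 7.21% and CTA 5.35%, and with G in front 4.53% and 2.22%. Each of these differences between bases was larger than the SD of either level between the replicates. Both bases could be read at 52.8% of the CAA and 52.4% of the CTA sites of methylated bins. A or T in front is readable only where a C lies 2 or 3 bases before the site, and A or T behind only where a G lies 4 or 5 bases after it, so sites with A or T are a selected part, while C and G are always read.

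Combining both bases gave 16 contexts of 5 bases for each trinucleotide. CAA levels ran from 2.42% at GCAAC (2.43% and 2.48%; 10.6% of the sites with both bases read) to 11.7% at TCAAG (11.997% and 11.5%; 6.06% of them), a 4.84-fold range. CTA levels ran from 1.08% at GCTAC (1.08% and 1.10%; 11.8%) to 8.89% at TCTAT (8.99% and 8.59%; 2.40%), an 8.20-fold range. The mean CHG level of the bins behind these contexts varied only from 62.0% to 64.6% for CAA and from 61.9% to 63.9% for CTA. The base after the site kept its order for the pairs of bases given here. CAA sites followed by G exceeded those followed by C in 4 of 4 comparisons at a fixed base in front, by 2.48-fold to 3.14-fold, and those followed by T in 4 of 4, by 1.25-fold to 1.61-fold. For CTA sites, G after the site was below T in 4 of 4 comparisons. In unmethylated bins the same contexts of CAA lay between 0.0892% and 0.146%. Their full order was another one, with CCAAC lowest and ACAAG highest. G after the site was above C there too at each base in front, but by smaller factors, as with 0.122% at TCAAG and 0.0967% at TCAAC.

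These contexts moved with the CHG level as all sites did. TCAAG had 2.98% in bins of 10% to 20% CHG (2.87% and 3.09%), 11.6% at 60% to 70% (11.8% and 11.6%) and 20.03% at 80% to 90% (20.08% and 20.03%). GCAAC had 0.674% (0.637% and 0.700%), 2.25% (2.26% and 2.33%) and 5.39% (5.30% and 5.40%) in the same bands. TCAAG was the higher of the pair at each of these CHG levels. The pair was picked as the highest and lowest CAA context over methylated bins, so this order follows in part from the choice. At the upper end of the CTA contexts, TCTAT had 2.43% in bins of 10% to 20% and 12.4% in bins of 70% to 80%, while GCTAC had 0.355% and 1.34%.

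A CAG or CTG site at 1 distance upstream stood out. CAA sites with a CAG or CTG at 50% or more starting 4 bases before them on the same strand had 8.89% over 23764 sites (8.98% and 8.81% in the replicates). With such a site 5 or 6 bases before, the level was 5.07% (5.15% and 4.95%) or 5.89% (5.82% and 5.97%). Over starts 5 to 12 bases before, it stayed between 5.07% and 6.41%. The high level went with the base between the trinucleotides. It was 10.9997% over 6604 sites (11.2% and 10.9%) where that base was C, and 4.85% over 6342 sites (4.92% and 4.81%) where it was G, and 9.96% over 10818 sites where it was an A or T that could not be told. With the CAG or CTG starting 5 bases before, C and G in that place gave 4.46% and 4.55%. CTA sites with a CAG or CTG 4 bases before showed the same order, with 7.77% for C (8.02% and 7.74%) and 2.11% for G (2.17% and 2.06%). The same distance was also highest among these when the CAG or CTG was below 20%. CAA sites then had 2.72% at 4 bases before (808 sites), against 1.75% at 5 and 1.798% at 6, and CTA sites 2.13% (789 sites), against 1.11% and 1.39%. Farther away, however, CAA sites with a low neighbour reached similar levels, such as 2.77% at 55 bases before (949 sites) and 2.71% at 41 (951 sites). With low neighbours the CAA level at this distance was thus high only against nearby starts.

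Distance inward from the ends of methylated runs was measured next. Consecutive methylated bins formed 8894 runs with a median length of 3 kb, the longest of 92 kb. Where the bin beyond the nearer end was scored and was not a methylated bin, the CAA level was 3.37% in the outermost kb (3.40% in replicate 1 and 3.33% in replicate 2). It was 5.38% from 1 to 2 kb inward (5.37% and 5.41%) and 6.26% from 2 to 3 kb (6.322% and 6.1997%). The CTA level went from 2.07% (2.07% and 2.06%) to 3.30% (3.34% and 3.28%) and 3.85% (3.92% and 3.76%). From the outermost kb to 2 to 3 kb inward the CAA level increased by 2.90 ± 0.0394 percentage points and the CTA level by 1.78 ± 0.104 (SD, n = 2). Over the same step the CHG level went from 54.7% to 67.3%, and the CAA level as a share of the CHG level from 6.17% to 9.31%. Over all ends the CAA step was 2.10 ± 0.0174 points, and within CHG bands of 5 points it was 0.359 ± 0.00326 points (SD, n = 2). For CTA the corresponding steps were 1.34 ± 0.0354 and 0.326 ± 0.0430 points.

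Further inward both levels declined again. The CAA level was 5.75% from 5 to 10 kb (5.82% and 5.71%), 5.27% from 10 to 20 kb (5.33% and 5.30%) and 4.68% beyond 20 kb (4.66% and 4.58%, 4860 sites). The difference between beyond 20 kb and 2 to 3 kb was -1.64 ± 0.0327 points (SD, n = 2). Sites beyond 20 kb lie only in runs over 40 kb, of which there were 35, and the SD does not cover differences between runs. The CTA level was 3.23% beyond 20 kb (3.31% and 3.04%). The CHG level changed by -0.714 points over this distance, so CAA declined more than CHG in proportion. The size of the decline depends on how runs are cut. When unscored bins did not end a run, the CAA difference was -0.973 ± 0.00888 points (SD, n = 2), with 70307 sites beyond 20 kb. The merged CHG level then changed by 0.783 points. The CTA level was then 3.88% at 2 to 3 kb, 3.98% at 5 to 10 kb and 3.43% beyond 20 kb. At matched CHG levels and flanking bases, over all ends, sites more than 10 kb inward differed from those at 2 to 3 kb by -1.16 ± 0.0313 points for CAA and by -0.530 ± 0.0504 points for CTA (SD, n = 2). Among the flanking bases, an A or T that could not be told was matched as a class of its own. By run length, CAA levels were 3.42% in runs of 1 kb, 5.92% in runs of 7 to 10 kb and 4.86% in runs over 40 kb (35 runs), at CHG levels of 53.0%, 67.1% and 66.6%.

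Where the nearer end lay at a bin that could not be scored for lack of covered sites, or at a chromosome end, no rise was seen. There the CAA level was 6.70% in the outermost kb (6.76% and 6.69%), 6.44% from 1 to 2 kb (6.497% and 6.463%) and 6.23% from 2 to 3 kb (6.40% and 6.26%). The CTA level was 3.99%, 4.02% and 3.83% in the same classes. The 2 kinds of ends, 235984 and 73912 covered CAA sites in the outermost kb, therefore gave opposite directions over the first 3 kb and the same decline further in. A comparison that pools both kinds depends on how the runs are cut. The CAA level more than 5 kb inward minus that of the outermost kb was 1.36 points (1.37 ± 0.0229, SD, n = 2), but 2.41 points when unscored bins did not end a run, 0.156 points with bins of 500 bp, 0.812 points with a CHG limit of 50% and -0.323 points with at least 20 reads per site. Compared within CHG bands of 5 points it was -0.453 points.

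**Figure D2:**
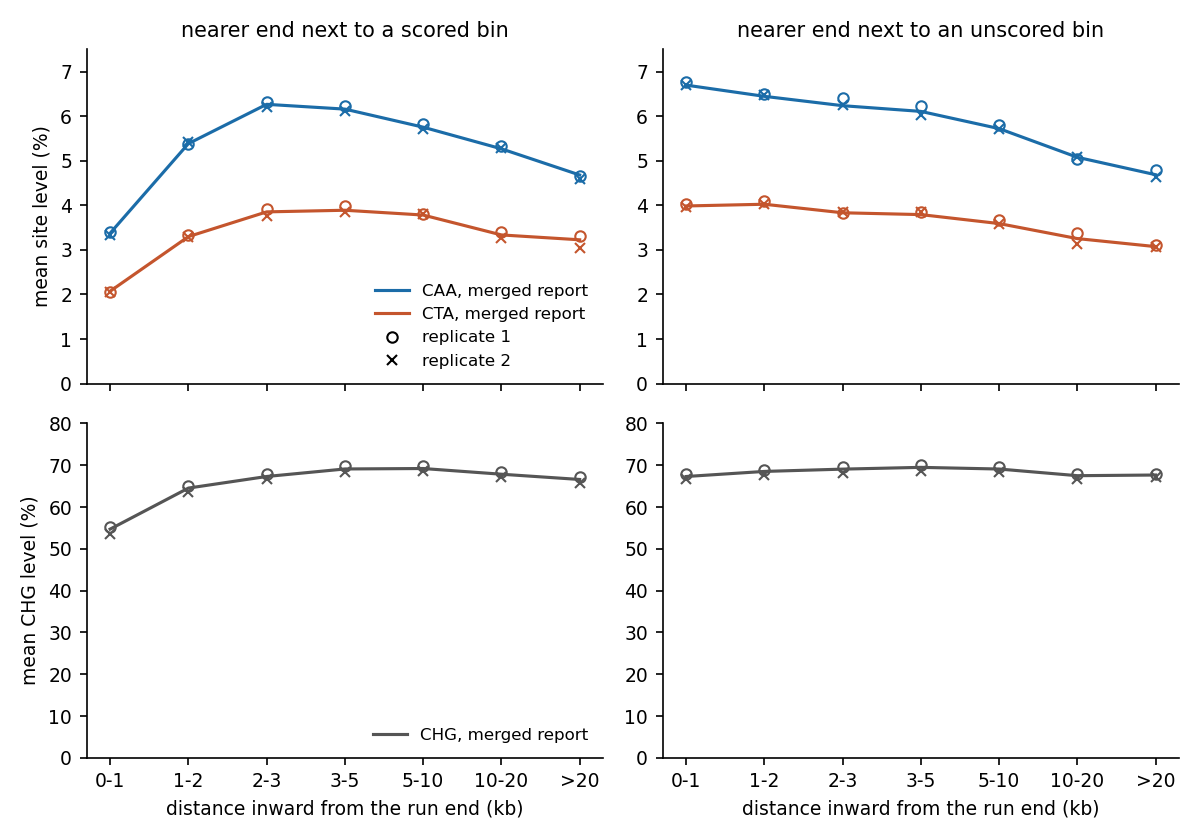
CAA and CTA level (upper row) and CHG level (lower row), in %, by distance inward from the nearer end of a methylated run (x axis, kb). Left, ends next to a scored bin; right, ends next to an unscored bin or a chromosome end; lines are the merged report and symbols the replicates. CAA climbs from 3.37% to 6.26% over the first 3 kb on the left and has no such climb on the right.

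Chromosomes differed little. In methylated bins the CAA level lay between 5.10% on chromosome 2 (5.22% in replicate 1 and 5.06% in replicate 2) and 5.41% on chromosome 4 (5.43% and 5.38%), and the CTA level between 3.12% and 3.28% on the same chromosomes. Chromosome 6 had a CAA level of 5.25% (5.29% and 5.25%) against 5.26% (5.33% and 5.22%) on chromosomes 1 to 5. The difference of -0.00509 points was smaller than its SD between the replicates of 0.0478. The CHG level of its methylated bins was however 67.0% (67.5% and 66.2%), above the 63.9% to 65.1% of the other chromosomes. When sites were compared within CHG bands of 5 points, sites of chromosome 6 differed from those of the other chromosomes by -0.643 ± 0.0199 points for CAA and by -0.395 ± 0.00369 points for CTA (SD, n = 2). With the flanking bases matched as well, the differences were -0.683 ± 0.0248 and -0.339 ± 0.00212 points. An A or T that could not be told was matched only as a class of its own. Relative to the CHG level of the bin, both contexts were therefore lower on chromosome 6 in each replicate. Without matching the CTA level was higher there, by 0.0384 points with an SD of 0.0200. TCAAG sites had 11.9% on chromosome 6 (12.1% and 11.8%) and between 11.4% and 12.3% on the others.

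**Figure D3:**
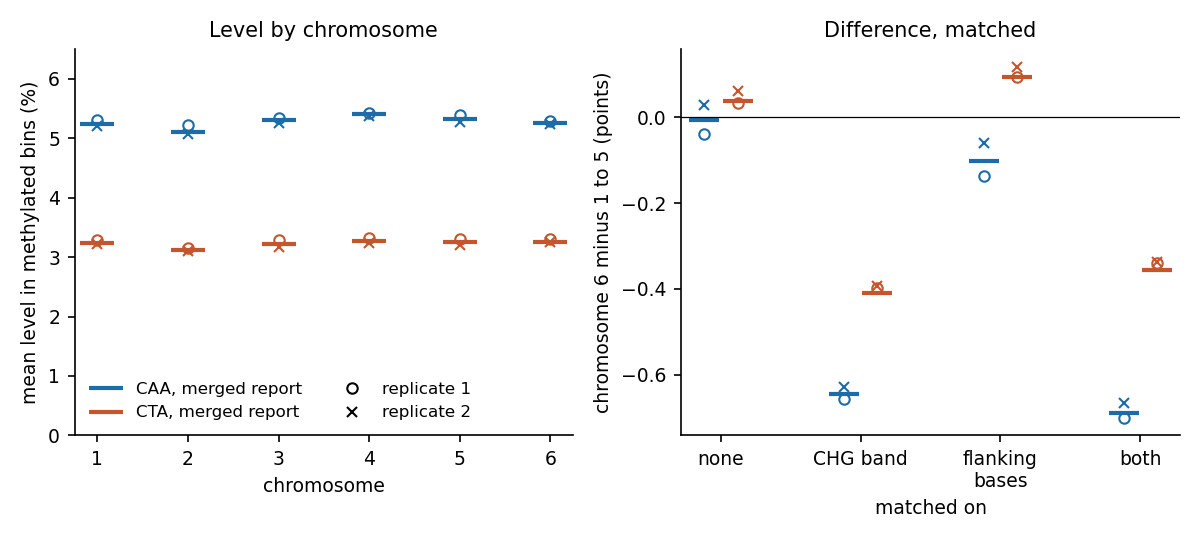
Left, CAA and CTA level in methylated bins (y axis, %) by chromosome. Right, chromosome 6 minus chromosomes 1 to 5 (y axis, percentage points) without matching and matched on the CHG band of the bin, on the flanking bases or on both. Dashes are the merged report and symbols the replicates; the CAA difference is near 0 without matching and -0.646 points within CHG bands.

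Strands did not differ by much either. The CAA level was 5.24% on the plus strand (5.28% and 5.21%) and 5.28% on the minus strand (5.35% and 5.24%), a difference of 0.0400 points with an SD of 0.0220. With at least 20 reads per site its sign turned (-0.0189 points). By chromosome the minus strand was higher on 3, 4 and 5 in the merged report and in each replicate, while on 1, 2 and 6 the replicates did not both show the order of the merged report. The CTA level was 3.23% on the plus strand and 3.22% on the minus strand. Within bins, strands went together, as the CAA level of the plus strand in replicate 1 was correlated with that of the minus strand in replicate 2 with r = 0.543 (13755 bins) and with that of the plus strand with r = 0.616 (16590 bins). Some CTA sites face another CTA site across the strands, in the sequence CTAG, which reads the same on both strands. Where the plus strand site of such a pair was at 20% or more in replicate 1, the minus strand site had 6.87% in replicate 2 (2930 pairs), against 3.36% where it was at 0 (29059 pairs). In the reverse direction the levels were 6.98% and 3.38%.

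Closeness to a methylated CHG site, one with a level of at least 50%, was examined over both strands. In methylated bins the CAA level was 5.65% at 1 to 5 bp (5.69% in replicate 1 and 5.62% in replicate 2), 6.003% at 6 to 10 bp (6.002% and 5.942%) and 5.65% at 11 to 20 bp (5.66% and 5.64%). It was 3.72% at 51 to 100 bp (4.40% and 4.15%) and 1.69% beyond 200 bp (2.47% and 2.32%). The CTA level went from 3.85% at 6 to 10 bp (3.86% and 3.81%) to 1.12% beyond 200 bp (1.43% and 1.41%). Distances were taken to CHG sites covered in the merged report, so a site counted in a replicate can lie near methylated CHG sites that the merged report does not cover. At long distances the replicates exceeded the merged report, and the part of this limit in that was not tested. CAA sites within 10 bp had 5.83% and those at 51 to 200 bp 3.45%, a merged difference of 2.37 points (1.77 ± 0.114 over the replicates, SD, n = 2). Most of it went with the CHG level of the bin. Within CHG bands of 5 points the difference was 0.599 points in the merged report and 0.216 and 0.332 points in the replicates, and for CTA 0.494, 0.302 and 0.352 points. With bins classed in one replicate and levels from the other, the unmatched CAA difference was 1.298 points.

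**Figure D4:**
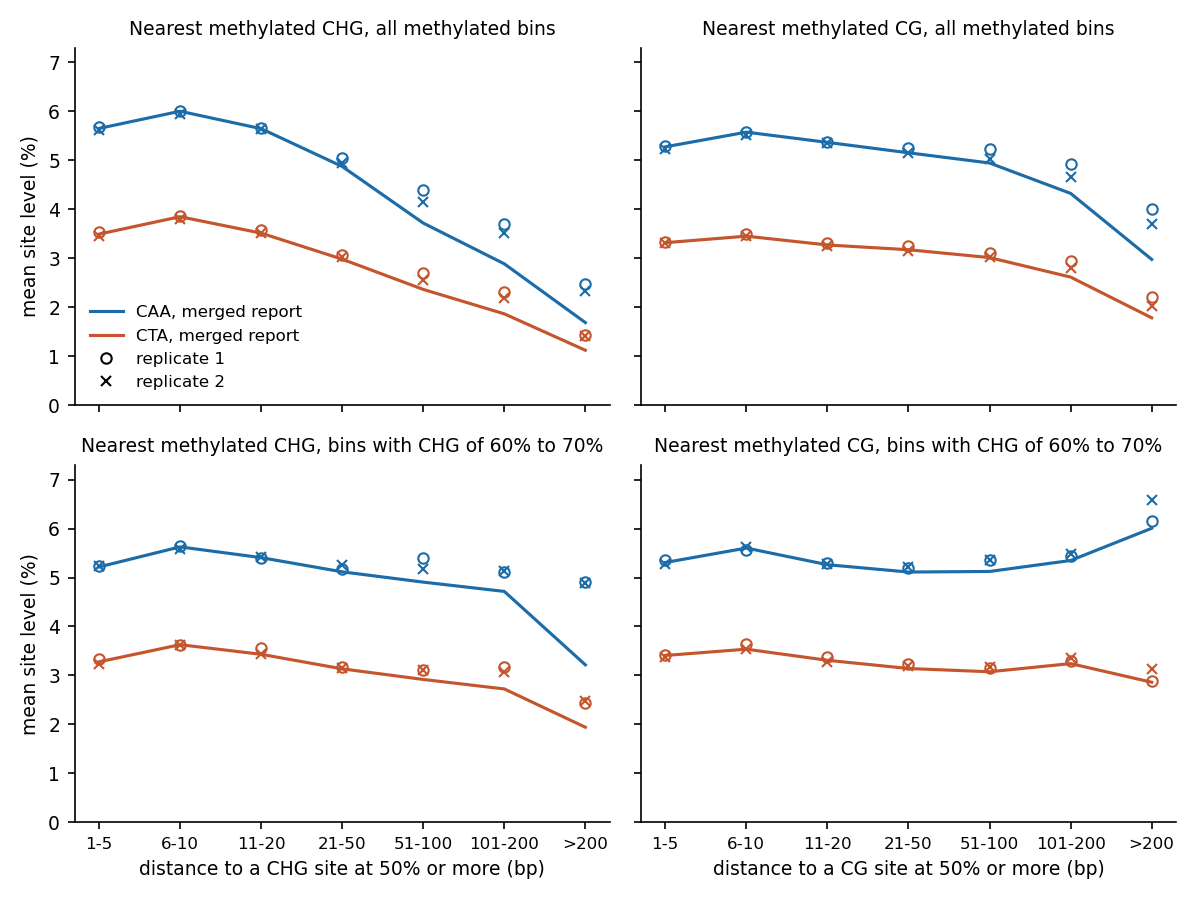
CAA and CTA level (y axes, %) by distance to the nearest CHG (left) or CG (right) site with a level of at least 50% (x axes, bp classes), in all methylated bins (upper row) and in those with a CHG level of 60% to 70% (lower row), with lines for the merged report and symbols for the replicates. In all methylated bins CAA is 6.003% at 6 to 10 bp from such a CHG site and 1.69% beyond 200 bp in the merged report.

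By distance to a methylated CG site, the CAA level was 5.58% at 6 to 10 bp (5.58% and 5.52%) and 4.95% at 51 to 100 bp (5.22% and 5.03%), and in bins with a CHG level of 60% to 70% it was 5.602% and 5.124%. Beyond 200 bp it was 2.98% over all methylated bins (4.01% and 3.695%) but 6.006% in the bins of 60% to 70% CHG (6.16% and 6.59%, 1264 sites), so no decline was seen there. For CTA in the latter bins the level went from 3.54% at 6 to 10 bp (3.63% and 3.55%) to 2.86% beyond 200 bp (2.89% and 3.12%, 1036 sites). The level also went with that of the nearest CAG or CTG site. CAA sites whose nearest such site was below 20% in replicate 1 had 2.55% in replicate 2 (18286 sites), and those with a site of 80% or more had 6.02% (187403 sites). In bins with a CHG level of 60% to 70% these levels were 4.06% and 5.38%. For CTA they were 1.64% and 3.78% over all methylated bins. Within unmethylated bins, the few CAA sites within 10 bp of a methylated CHG site had 1.93% (1.70% and 2.02%, 283 sites) and the CTA sites 2.08% (1.82% and 1.76%, 183 sites). Sites more than 1000 bp away had 0.105% and 0.103%. Near a methylated CG site in such bins the CAA level was 0.628% (0.585% and 0.757%, 1283 sites).

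CAA and CTA sites also went with nearby sites of the same context. Neighbours of other CHH contexts were not examined here, and the CHG level of the bin was not matched. Sites were grouped by a neighbour in one replicate and measured in the other, in both directions, and the directions averaged. CAA sites of methylated bins with a CAA neighbour at 20% or more on the same strand, from 10 to under 400 bp away, had between 7.84% and 8.39% across classes of 10 bp. Where that neighbour was at 0, they had between 4.45% and 4.66%. For a site on the opposite strand the ranges were 7.44% to 8.27% and 4.40% to 4.61%, close to those of the same strand. For CTA the same-strand ranges were 4.52% to 5.06% and 2.78% to 3.03%, and the opposite-strand ranges 4.47% to 5.13% and 2.794% to 3.005%. The ranges for high and for zero neighbours did not overlap in either context. At 3 to 9 bp, a class that holds the CTAG pairs, CTA sites with a high neighbour had 4.37% ± 0.0586 on the same strand and 6.27% ± 0.0125 on the opposite strand (SD, n = 2). With a neighbour at 0 the opposite strand was also the higher, with 2.64% ± 0.0365 on the same and 3.13% ± 0.00565 on the opposite strand.

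**Figure D5:**
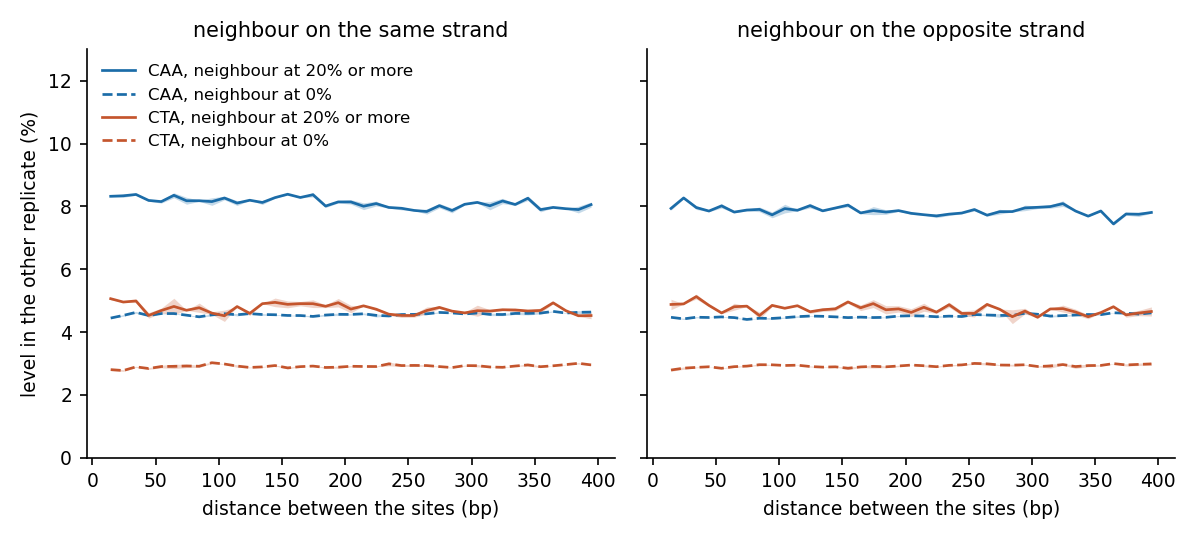
Level in one replicate (y axis, %) of CAA and CTA sites in methylated bins by distance (x axis, bp) to a site of the same context that was at 20% or more, or at 0, in the other replicate (left, same strand; right, opposite strand; lines are means over both directions and bands the SD). From 10 to under 400 bp the curves for high neighbours lie above those for neighbours at 0, at 7.84% to 8.39% against 4.45% to 4.66% for CAA on the same strand.

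Read depth moved with the level to some extent. In methylated bins the CAA level was 5.18% at sites with 10 to 14 reads, 5.33% at 15 to 19, 5.86% at 20 to 27 and 6.17% at 28 or more, and the CTA level 3.18%, 3.28%, 3.57% and 3.71%. In unmethylated bins the CAA level was 0.119%, 0.106%, 0.105% and 0.166% in the same classes. The part of depth in the differences above was not tested.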

How the data were processed

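EM-seq libraries of 2 replicates were analysed from cytosine reports in which the authors deposited counts of methylated and unmethylated reads for every cytosine, with its strand and trinucleotide. Per the labels and the study's methods, reads were trimmed with Trim Galore, mapped with Bismark and Bowtie2 to the Oxford assembly and deduplicated, and SAMtools 1.9 and bedtools 2.27.1 were used. The merged report holds the reads of both replicates. Uneven mapping in repeats and incomplete conversion can change levels.

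Levels were computed with Python 3.11.15, NumPy 2.4.6 and Numba 0.67.0 at sites with at least 10 reads in the merged report and 5 in a replicate, and figures with Matplotlib 3.10.9. Intervals were exact binomial (SciPy 1.17.1). Bins were classed once, in the merged report, and the same bins were used for the replicates. Matched differences compare sites within CHG bands of 5 points or 5-base contexts. In these contexts an A or T that could not be told was a class of its own, so such bases were matched only in part. The shares of CAG, CTG and CCG sites in a bin were not matched. No test was run, and p-values were not computed. Methylated sites used for distances had at least 10 reads. Named sites were the 5 per context with most methylated reads among those with 10 to 27 reads and at least 80% in each replicate, some of which are shown by their sequence, and named bins the 3 per context with the highest level among those with at least 20 covered sites. Alternatives changed the read minimum, read maximum, bin size, CHG limit, run definition, averaging, replicates and matching. The sites and lists were chosen with earlier results of these data known. The computation of 12 levels and differences was tested on simulated data over 111934 bins, with a largest error of 0.0385 percentage points. CHG bands, matched differences, flanking bases, neighbouring sites and named bins were not part of that test. Scaffolds outside the 6 chromosomes were left out.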

Additional observations from a re-analysis of the deposited data

How the results depend on the processing

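Of the values compared under other settings, 62 stayed within the SD between the replicates, 47 moved by more and 4 turned from a value larger than its SD to the other sign. Of the CTA differences, 24 stayed, 24 moved and 7 turned. Counting also values smaller than their SD, 6 and 8 changed sign, the added ones being CAA on chromosome 6 (0.0335 with pooled reads, 0.000308 without replicate 1) and CTA strand (0.00162 without replicate 2). No paired analysis was possible because there is only 1 group. Matching was chosen after seeing the data, and the cause of the shifts was not tested. With at least 5 reads, the CAA level of methylated bins was 5.36%, CTA 3.30%, the CHG band difference for CAA 10.1 points, run interior minus edge 2.01, chromosome 6 minus the others -0.112 and near minus far 2.62. With at least 20 reads, the same were 6.04%, 3.65%, 5.72 and -0.323, with 1.91 for near minus far, strand -0.0189, CG-only 0.211% (CAA) and 0.101% (CTA), and unmethylated CTA 0.0939%. For CTA, interior minus edge was then -0.316 and chromosome 6 -0.121. With at most 27 reads interior minus edge was 1.39, and with pooled reads 1.29. In 2000 bp bins CAA was 5.36%, CTA 3.29%, unmethylated CTA 0.123% and interior minus edge 1.92, and in 500 bp bins the last pair were 0.109% and 0.156. A CHG limit of 50% gave CAA 5.88%, CTA 3.63%, interior minus edge 0.812 and chromosome 6 -0.563 (CTA -0.335). Bridging unscored bins gave 2.41. With bins classed in one replicate and levels from the other, the CHG band difference was 7.42, interior minus edge 1.49, near minus far 1.298 and unmethylated CTA 0.124%. A limit of 80% for a methylated CHG site gave near minus far 2.14. Matched on CHG bands, interior minus edge was -0.453 (CTA -0.0276), chromosome 6 -0.646 (CTA -0.409) and near minus far 0.599. Matched on flanking bases, the first 2 were 1.22 and -0.101. Matched on both, they were -0.486 (CTA -0.0116), -0.688 (CTA -0.355) and 0.705. Without either replicate, CAA was 5.27% to 5.34%, CG-only CAA 0.143% to 0.171% and CTA 0.127% to 0.159%, unmethylated CTA 0.112% to 0.123%, the CHG band difference 8.20 to 8.52, interior minus edge 1.44 to 1.47 and strand 0.0275 to 0.0633. Near 10 reads, single sites resolve only coarse levels. Counts of sites by level rest on the merged report alone, while the sites named for their level had to reach 80% in each replicate.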
